A study of Mus musculus with 18 samples.

Results

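Interferon-induced genes were followed across 6 groups of mouse tissue, as a list of 40 genes that cells switch on in response to interferon. A gene was read from the array probes whose accession maps to its symbol, and where a gene had several probes the brightest stood for it. Of the 40 genes, 38 had such a probe and all 38 were among the 17901 named genes that could be tested, out of 22911 with a probe. Mx1 and Mx2, which encode antiviral dynamin-like GTPases, had no probe by this rule and were not analysed here. Of the 38, 37 were well above background on all 18 arrays, and Oas3 was so on 15.

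The groups combined 2 genotypes with 3 tissues, with 3 arrays in each group and RNA from 3 animals pooled on each array, so that every group stands for 9 female mice. PRCre animals carry Cre recombinase at the progesterone receptor gene on 1 allele (PRCre/+) and served as controls. ERBOE animals are described as overexpressing oestrogen receptor beta (ERβ). Uterus came from PRCre/+ and ERBOE mice of 12 weeks that had no surgery. Ectopic lesions, the tissue of experimental endometriosis, grew from a PRCre/+ or ERBOE uterine fragment placed in a wild-type C57BL/6J host of 8 weeks, so a lesion can hold wild-type host cells. Samples labelled eutopic endometrium, the lining in its normal place, came from PRCre/+ or ERBOE hosts of 8 weeks that carried a wild-type fragment. Lesions and eutopic endometrium were taken 4 weeks after surgery, and all 6 groups were at estrus. For lesions and eutopic endometrium of the ERBOE groups one label field names mice without endometriosis, against their titles, and the titles were followed here.

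Interferons are secreted proteins that alert cells to virus and to other danger. Type I and type III interferons act through the receptors IFNAR and IFNLR and a complex that contains STAT2 and IRF9, which binds the interferon-stimulated response element. Interferon gamma, made mainly by NK and T cells, acts through IFNGR, and its genes carry the gamma-activated site. The uterus also makes interferon epsilon (Ifne) in its epithelium, a type I interferon that is regulated by hormones rather than by infection. The genes induced include sensors of foreign nucleic acid, antiviral effectors, guanylate binding proteins and the machinery that presents peptides to T cells.

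The 2 DNA elements were sought in the promoters, from 250 bases before to 50 bases after the gene's start in RefSeq (GRCm38.p6), because they are what the 2 kinds of interferon signal act on. A window was held for 31 of the 40 genes. The core of the interferon-stimulated response element was taken as the letters GAAA, any 2 bases and GAAA again, on either strand. It stood in 17 of 31 windows (54.8%), against 1079 of 27025 genes with a window (3.99%). The letters TTCNNNGAA, the gamma-activated site, which reads the same on both strands, stood in 10 of 31 (32.3%), against 2582 of 27025 (9.55%). Matches of both can share bases, as in Bst2. By role, the interferon element was found in 5 of 5 windows of the GTPases, 3 of 3 of the sensors, 4 of 7 of the Ifit and Oas families, 4 of 9 of the other effectors, 1 of 4 of the signalling genes (Stat2) and 0 of 3 of the peptide genes. The windows of Psmb9 and Tap1, which start from a shared promoter on chromosome 17, have 275 bases in common. A match is a description of letters and not of a bound site. The stretches below show the elements of genes that the results turn on, with the matched letters in capitals: Isg15 at chr4:156200863-156200908 (minus strand), Ifit1 at chr19:34640773-34640825 (plus strand), Ifit3 at chr19:34583361-34583428 (plus strand), Rsad2 at chr12:26456551-26456584 (minus strand), Oas3 at chr5:120777713-120777746 (minus strand), Oas1a at chr5:120907526-120907557 (minus strand), Gbp2 at chr3:142620592-142620625 (plus strand), Igtp at chr11:58199499-58199543 (plus strand) and Irf1 at chr11:53769912-53769944 (plus strand). All are written from 5′ to 3′ on the gene's strand.
Isg15: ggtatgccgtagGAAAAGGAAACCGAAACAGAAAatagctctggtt
Ifit1: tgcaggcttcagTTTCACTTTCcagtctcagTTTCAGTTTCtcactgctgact
Ifit3: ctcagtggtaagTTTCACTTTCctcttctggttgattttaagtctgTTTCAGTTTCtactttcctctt
Rsad2: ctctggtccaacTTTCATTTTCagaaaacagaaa
Oas3: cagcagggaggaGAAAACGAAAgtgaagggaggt
Oas1a: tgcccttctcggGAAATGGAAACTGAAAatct
Gbp2: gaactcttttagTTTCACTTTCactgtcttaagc
Igtp: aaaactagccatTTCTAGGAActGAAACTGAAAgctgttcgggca
Irf1: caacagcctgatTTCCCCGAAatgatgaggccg
In Isg15 3 matches of the interferon element overlap, each sharing a GAAA with the next. In Ifit1 and Ifit3 there are 2 copies each on the opposite strand. Igtp holds a gamma-activated site and then an interferon element, and Irf1 holds a gamma-activated site alone.

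Values below are log2 levels relative to the array's 75th percentile, so 0 is that percentile itself and a difference of 1 unit is 2-fold. A level compares arrays for 1 gene and not genes with each other. The 75th percentile signal was 237.3 on PRCre uterus replicate 1 and 451.4 to 740.0 on the other 17 arrays, 53.1% to 73.0% of probes passed the scanner's test for a signal well above background, with 0 saturated spots. The tissue labels were checked with marker genes. The 10 epithelial, 10 stromal and 7 smooth muscle markers were well above background on all 18 arrays, eutopic samples labelled endometrium included. The mean level of the smooth muscle markers was 4.44 to 5.56 in PRCre and 4.28 to 4.69 in ERBOE eutopic samples. In uterus it was 4.30 to 4.92 in PRCre and 4.54 to 4.85 in ERBOE mice. Eutopic samples thus read about as high for muscle as uterus, which goes against lining alone. Eutopic endometrium below means the samples with that label. Adipocyte markers were higher on every lesion array (list median 2.17 to 5.05 above each gene's mean over all arrays) than on every other array (-3.32 to 0.43). The bright probe of Esr2, the ERβ gene, differed between ERBOE and PRCre by -0.24 in uterus, 0.01 in eutopic endometrium and -0.25 in lesions (each ± 0.20, SE, n = 3 arrays per group). How the overexpression was built is not given in these sources, so the probe may lie outside what it adds, and ERBOE below means the arrays with that label.

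No interferon-induced gene passed the test in any comparison, and the 38 mostly went up and down together from array to array within a group. ERBOE uterus read higher than PRCre uterus for 32 of 38 genes (40.3% of all features), whereas ERBOE eutopic endometrium read lower than PRCre for 37 of 38 (50.8% of all features) and ERBOE lesions lower for 38 of 38 (56.1% of all features). The median difference was 0.47, -0.44 and -0.58 in turn, and the same median over all 33178 features tested was -0.12, -0.01 and -0.06. The test was limma's moderated test with Benjamini-Hochberg adjustment over all features, called at an adjusted p under 0.05. It called 0 of 38 genes in all 12 comparisons. Each of the 3 genotype comparisons called 0% of all features. Without adjustment, at p under 0.05, 3 of 38 genes were higher in ERBOE uterus (4.14% of all features), Oas3 among them with 1 of 3 PRCre arrays well above background, and 0 of 38 passed either way in eutopic endometrium (2.94% of all features) or lesions (4.42% of all features).

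**Figure D1:**
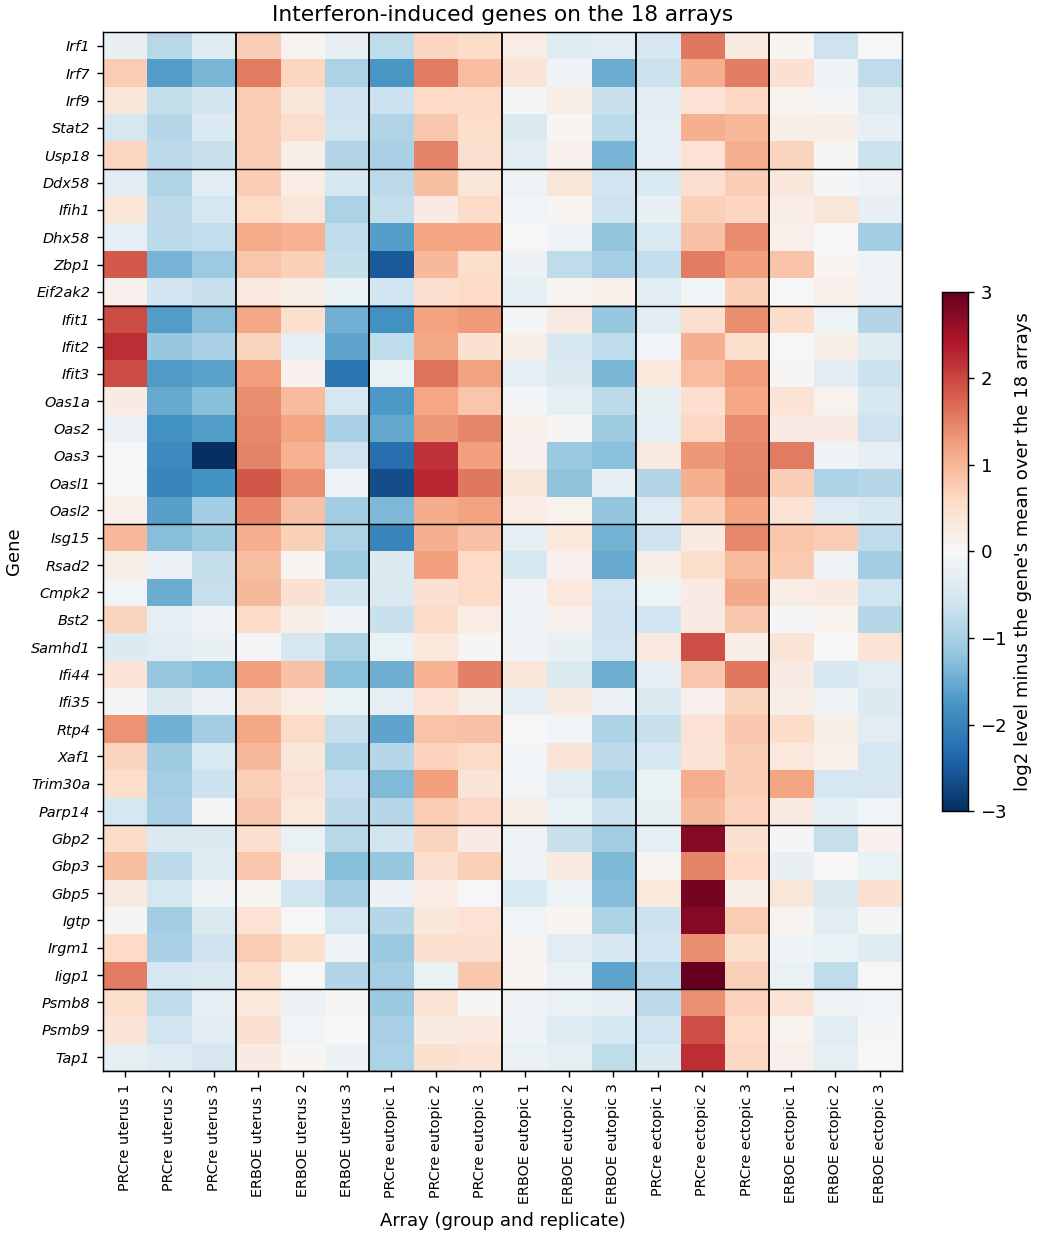
Heat map of the 38 genes (one per line, ordered by role, with lines between roles) on the 18 arrays (columns, by group and replicate). Colour gives the log2 level minus the gene's mean over the 18 arrays, and ends at 3 units either way. Whole columns are red or blue, as on PRCre eutopic replicate 1, the lowest of its group for 38 of 38 genes, and the GTPases and peptide genes are at their reddest on PRCre ectopic replicate 2.

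The spread between pools was wide. The median over the genes of the range between the 3 arrays of a group was 1.42 in PRCre uterus, 1.55 in ERBOE uterus, 1.71 in PRCre eutopic endometrium, 1.52 in PRCre lesions, 0.93 in ERBOE eutopic endometrium and 0.79 in ERBOE lesions. ERBOE uterus replicate 1 was the highest of its group for 38 of 38 genes, and PRCre eutopic replicate 1 the lowest of its group for 38 of 38. PRCre uterus replicate 1, the array with the low signal, was the highest of its group for 35 of 38. In the deposited values the median over all probes was also highest on that array, at 0.36, against 0.05 and 0.08 on replicates 2 and 3. High readings there are thus not particular to these genes. PRCre ectopic replicate 1 was the lowest of its group for 36 of 38. All 3 ERBOE arrays lay inside the PRCre range for 5 of 38 genes in the uterus, for 25 in eutopic tissue and for 12 in lesions. The range was narrower in ERBOE than in PRCre for 15, 37 and 35 of the 38 genes. That difference in spread was not tested. The shares of all features with these ranks and ranges were not computed. RNA was measured in bulk, so fewer cells of a type and less RNA per cell cannot be told apart.

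Because arrays move as a whole, the medians depended on single arrays. The median genotype difference in the uterus was 0.24 without ERBOE uterus replicate 1 or PRCre uterus replicate 2, 0.79 without PRCre uterus replicate 1 and 0.95 without ERBOE uterus replicate 3. In eutopic endometrium it was -1.04 without PRCre eutopic replicate 1, -0.13 without replicate 2, -0.15 without replicate 3 and -0.18 without ERBOE eutopic replicate 3. In lesions it was -0.99 without PRCre ectopic replicate 1, -0.27 without replicate 2, -0.37 without replicate 3 and -0.38 without ERBOE ectopic replicate 3. On arrays of the same slide, the uterine median was -0.03 on slide 1, 1.22 on slide 2 and 0.32 on slide 3, with 1 array of each genotype on each. Eutopic medians were -0.68 on slide 2 and -0.28 on slide 3, and lesion medians -0.94 on slide 1 and -0.72 on slide 2. The sign of the uterine median thus turned on slide 1, and in the other tissues it was negative on each slide with both genotypes.

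**Figure D2:**
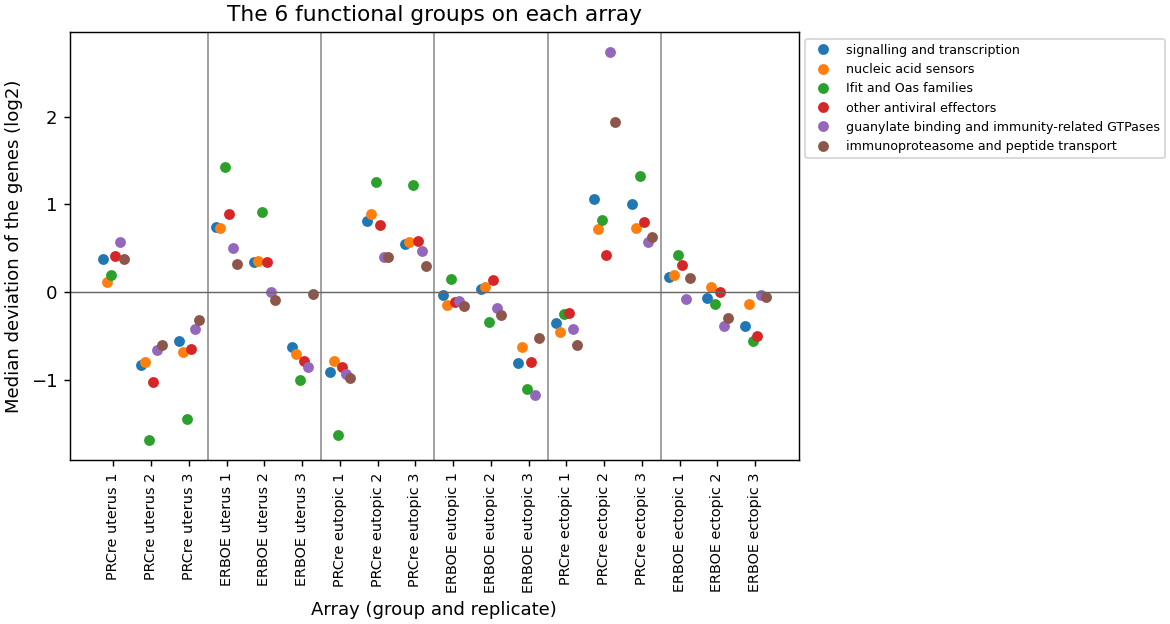
Median deviation of 6 functional groups of genes from each gene's own mean over the 18 arrays (y axis, log2 units), on each array (x axis, by group and replicate). On most arrays the groups lie together with the Ifit and Oas families outermost, from -1.68 on PRCre uterus replicate 2 to 1.42 on ERBOE uterus replicate 1, whereas on PRCre ectopic replicate 2 the GTPases (2.74) and the peptide genes (1.93) lie above the rest.

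Signalling and transcription genes set the response and limit it. Irf7, the factor that amplifies the type I response, had the widest range of group means in this group (1.42). In PRCre uterus Irf7 read 5.62, 3.19 and 3.50, against 6.42, 5.51 and 3.92 in ERBOE uterus. Eutopic Irf7 read 3.11, 6.42 and 5.79 in PRCre and 5.24, 4.73 and 3.38 in ERBOE hosts. Lesional Irf7 read 4.21, 5.95 and 6.40 in PRCre and 5.31, 4.74 and 4.10 in ERBOE lesions. Irf7 thus overlapped between genotypes in every tissue, with 1 low array in PRCre eutopic endometrium and 1 in PRCre lesions. Its ERBOE minus PRCre difference was 1.19 ± 0.92 in uterus, -0.66 ± 0.92 in eutopic tissue and -0.80 ± 0.92 in lesions (SE of the fit, n = 3 arrays per group, as for all differences below). The fit takes 1 spread per gene from all 6 groups. A gene's SE is therefore the same in all 3 tissues and is not the spread of the 2 groups compared. The limma adjusted p of Irf7 was 0.69, 1.00 and 0.99 in turn.

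Stat2 encodes a transcription factor of the type I and type III response. In PRCre uterus Stat2 read 1.58, 1.21 and 1.64, against 2.82, 2.61 and 1.48 in ERBOE uterus. Eutopic Stat2 read 1.16, 2.89 and 2.60 in PRCre and 1.64, 2.11 and 1.27 in ERBOE hosts. Lesional Stat2 read 1.78, 3.14 and 3.07 in PRCre and 2.25, 2.24 and 1.82 in ERBOE lesions. Stat2 was low on all 3 PRCre uterus arrays, with 1 ERBOE uterus array among them, and high on 2 of 3 PRCre arrays in the other tissues. The difference was 0.82 ± 0.48 in uterus, -0.54 ± 0.48 in eutopic tissue and -0.56 ± 0.48 in lesions. A dimmer second probe of Stat2 gave 0.17, -1.47 and -0.22 in the same tissues.

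Irf9 is the DNA-binding partner of STAT2. In PRCre uterus Irf9 read 2.97, 1.88 and 2.04, against 3.36, 2.94 and 1.97 in ERBOE uterus. Eutopic Irf9 read 1.96, 3.19 and 3.16 in PRCre and 2.57, 2.76 and 1.92 in ERBOE hosts. Lesional Irf9 read 2.25, 3.03 and 3.21 in PRCre and 2.71, 2.53 and 2.21 in ERBOE lesions. Irf9 followed Irf7 at a smaller scale, with overlapping genotypes throughout, and differed by 0.46 ± 0.44 in uterus, -0.35 ± 0.44 in eutopic tissue and -0.35 ± 0.44 in lesions. Irf1 is a factor that interferon gamma induces strongly. In PRCre uterus Irf1 read 3.32, 2.71 and 3.16, against 4.27, 3.62 and 3.28 in ERBOE uterus. Eutopic Irf1 read 2.78, 4.19 and 4.08 in PRCre and 3.76, 3.18 and 3.22 in ERBOE hosts. Lesional Irf1 read 3.06, 5.12 and 3.80 in PRCre and 3.58, 2.92 and 3.55 in ERBOE lesions. The top Irf1 level of the series was on PRCre ectopic replicate 2. ERBOE minus PRCre was 0.67 ± 0.48 in uterus, -0.30 ± 0.48 in eutopic tissue and -0.64 ± 0.48 in lesions for Irf1, and its second probe gave 0.40, 0.0099 and -0.34.

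Usp18 removes ISG15 from proteins and blunts the type I receptor. In PRCre uterus Usp18 read 1.83, 0.38 and 0.51, against 1.91, 1.36 and 0.30 in ERBOE uterus. Eutopic Usp18 read 0.20, 2.65 and 1.68 in PRCre and 0.86, 1.31 and -0.23 in ERBOE hosts. Lesional Usp18 read 0.93, 1.60 and 2.25 in PRCre and 1.83, 1.22 and 0.53 in ERBOE lesions. Usp18 was highest on PRCre eutopic replicate 2 and lowest on ERBOE eutopic replicate 3. The difference was 0.28 ± 0.65 in uterus, -0.86 ± 0.65 in eutopic tissue and -0.40 ± 0.65 in lesions, and without ERBOE uterus replicate 1 the uterine value was -0.08. All 5 genes of the group read higher in ERBOE uterus, and all 5 lower in ERBOE eutopic endometrium and lesions, with group medians of 0.67, -0.54 and -0.56. The uterine median was 0.39 without ERBOE uterus replicate 1, the eutopic one -1.07 without PRCre eutopic replicate 1 and -0.14 without PRCre eutopic replicate 2, and the lesion one -1.0 without PRCre ectopic replicate 1 and -0.32 without PRCre ectopic replicate 2.

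Nucleic acid sensors detect foreign or misplaced RNA and DNA. Dhx58, which encodes the regulator LGP2, showed the widest differences, 1.06 ± 0.74 in uterus, -0.67 ± 0.74 in eutopic tissue and -0.90 ± 0.74 in lesions. Its levels ran from -2.31 to 0.76, with PRCre eutopic replicate 1 lowest. Ddx58 (RIG-I) differed by 0.68 ± 0.44 in uterus, -0.28 ± 0.44 in eutopic tissue and -0.20 ± 0.44 in lesions, and Ifih1 (MDA5) by 0.33 ± 0.45 in uterus, -0.25 ± 0.45 in eutopic tissue and -0.27 ± 0.45 in lesions. Zbp1, a sensor of Z-form nucleic acid, differed by 0.50 ± 0.95 in uterus, -0.30 ± 0.95 in eutopic tissue and -0.41 ± 0.95 in lesions, and its second probe by 1.66, -0.53 and -0.84. Zbp1 was highest on PRCre uterus replicate 1, at 2.65. Eif2ak2, the kinase PKR that stops translation, differed by 0.47 ± 0.34 in uterus, -0.20 ± 0.34 in eutopic tissue and -0.10 ± 0.34 in lesions. As in the signalling group, 5 of 5 sensors were higher in ERBOE uterus and 5 of 5 lower in the other tissues, with medians of 0.50, -0.28 and -0.27. The uterine median was 0.32 without PRCre uterus replicate 3 and 0.99 without ERBOE uterus replicate 3. The eutopic median was 0.01 without PRCre eutopic replicate 3 and -0.75 without PRCre eutopic replicate 1, and the lesion median -0.57 without PRCre ectopic replicate 1 and 0.04 with array weights.

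The Ifit and Oas families had the largest uterine median of the 6 functional groups (1.37). The Oas genes encode enzymes that make 2′-5′ oligoadenylate, which activates the RNA-degrading RNase L, and the Oas-like genes are their relatives. Oas2 was one of the 3 genes under an unadjusted p of 0.05 in the uterus. In PRCre uterus Oas2 read 3.19, 1.54 and 1.70, against 4.81, 4.56 and 2.41 in ERBOE uterus. Eutopic Oas2 read 1.84, 4.68 and 4.82 in PRCre and 3.53, 3.40 and 2.30 in ERBOE hosts. Lesional Oas2 read 3.09, 4.00 and 4.79 in PRCre and 3.62, 3.60 and 2.75 in ERBOE lesions. Of the uterine arrays, ERBOE replicates 1 and 2 stood above all PRCre arrays while ERBOE replicate 3 lay within them. The Oas2 difference was 1.78 ± 0.80 in uterus, -0.71 ± 0.80 in eutopic tissue and -0.63 ± 0.80 in lesions, with limma adjusted p of 0.49, 1.00 and 0.99. A dimmer second probe of Oas2, well above background on 7 arrays, gave 0.47, -0.70 and -0.79 in the same tissues.

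Oas3 was well above background on 1 of 3 PRCre uterus arrays and 2 of 3 PRCre eutopic arrays, and on all arrays of the other groups. In PRCre uterus Oas3 read -2.89, -4.81 and -6.02, against -1.40, -1.86 and -3.50 in ERBOE uterus. Eutopic Oas3 read -5.16, -0.73 and -1.66 in PRCre and -2.76, -4.01 and -4.15 in ERBOE hosts. Lesional Oas3 read -2.63, -1.59 and -1.44 in PRCre and -1.33, -3.01 and -3.13 in ERBOE lesions. The readings on PRCre uterus replicates 2 and 3 and on PRCre eutopic replicate 1 lay below the lowest signal that was well above background on those arrays, so the Oas3 differences that use them rest in part on background. Its PRCre eutopic arrays spanned most of the series' range, from -5.16 to -0.73. The Oas3 difference was 2.32 ± 1.02 in uterus, -1.12 ± 1.02 in eutopic tissue and -0.60 ± 1.02 in lesions, with a limma adjusted p of 0.48 in the uterus. With normexp background correction the uterine difference was 0.89, and with array weights 3.08.

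Oasl1 encodes a relative that limits translation of IRF7. In PRCre uterus Oasl1 read 1.69, -0.30 and -0.13, against 3.53, 3.03 and 1.51 in ERBOE uterus. Eutopic Oasl1 read -0.99, 3.92 and 3.24 in PRCre and 2.00, 0.45 and 1.43 in ERBOE hosts. Lesional Oasl1 read 0.79, 2.74 and 3.15 in PRCre and 2.41, 0.71 and 0.80 in ERBOE lesions. On uterine arrays the lowest ERBOE value lay under the highest PRCre value, so Oasl1 overlapped there by 1 array. The Oasl1 difference was 2.27 ± 1.08 in uterus, -0.76 ± 1.08 in eutopic tissue and -0.92 ± 1.08 in lesions, and the limma adjusted p was 0.51 in the uterus. Without PRCre eutopic replicate 2 its eutopic difference was 0.17. Oas1a differed by 1.46 ± 0.71 in uterus, -0.46 ± 0.71 in eutopic tissue and -0.48 ± 0.71 in lesions and Oasl2 by 1.28 ± 0.76 in uterus, -0.60 ± 0.76 in eutopic tissue and -0.65 ± 0.76 in lesions.

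Ifit proteins bind viral RNA and block its translation. In PRCre uterus Ifit3 read 2.95, -0.69 and -0.61, against 2.26, 1.14 and -1.16 in ERBOE uterus. Eutopic Ifit3 read 0.79, 2.63 and 2.20 in PRCre and 0.74, 0.59 and -0.38 in ERBOE hosts. Lesional Ifit3 read 1.32, 1.94 and 2.26 in PRCre and 1.03, 0.67 and 0.36 in ERBOE lesions. Ifit3 was the only one of the 38 genes whose groups did not overlap in eutopic endometrium, where each ERBOE array lay below each PRCre array (4.03% of all features did so in that direction). In lesions Ifit3 and Gbp3 were the 2 genes with that pattern (6.11% of all features). The Ifit3 difference was 0.20 ± 0.92 in uterus, -1.56 ± 0.92 in eutopic tissue and -1.15 ± 0.92 in lesions, with limma adjusted p of 0.96, 1.00 and 0.99. Its uterine difference turned negative when ERBOE uterus replicate 1 (-0.56), PRCre uterus replicate 2 (-0.43) or PRCre uterus replicate 3 (-0.38) was left out. Ifit1 differed by 0.40 ± 1.00 in uterus, -0.53 ± 1.00 in eutopic tissue and -0.68 ± 1.00 in lesions and Ifit2 by -0.43 ± 0.78 in uterus, -0.63 ± 0.78 in eutopic tissue and -0.56 ± 0.78 in lesions. These 3 genes were highest in uterus on PRCre replicate 1, unlike the 5 Oas genes, which were highest there on ERBOE replicate 1. The whole family gave 7 of 8 genes higher in ERBOE uterus and 8 of 8 lower in each of the other tissues, with medians of -0.67 and -0.64. The eutopic median was -1.61 without PRCre eutopic replicate 1 and -0.18 without PRCre eutopic replicate 3. The lesion median was -1.08 without PRCre ectopic replicate 1 and -0.34 without PRCre ectopic replicate 3, and the uterine median was 0.92 without ERBOE uterus replicate 1.

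**Figure D3:**
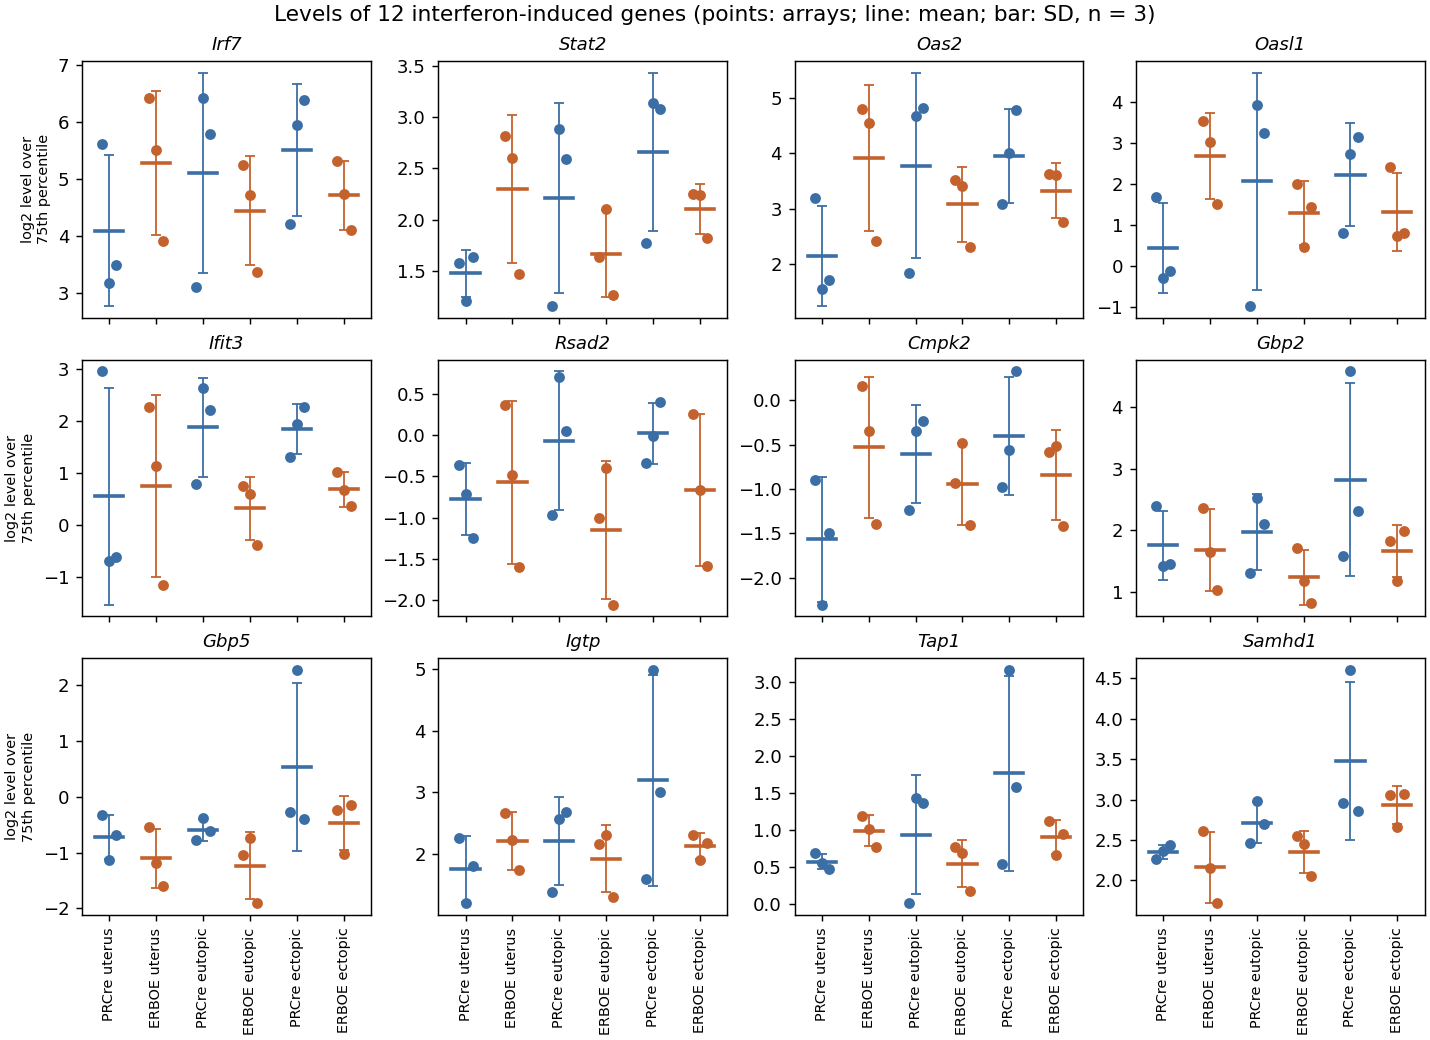
Levels of 12 of the genes (y axes, log2 over the array's 75th percentile) in the 6 groups (x axis). Points are arrays, each a pool of 3 animals, lines are group means and bars are SD (n = 3 arrays), with PRCre in blue and ERBOE in orange. Genotypes overlap within each tissue for most of the genes, Ifit3 in eutopic endometrium and lesions and Tap1 in uterus being exceptions.

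Among the other antiviral effectors, Cmpk2, a mitochondrial nucleotide kinase encoded beside Rsad2, was the third gene under an unadjusted p of 0.05 in the uterus. In PRCre uterus Cmpk2 read -0.90, -2.30 and -1.50, against 0.16, -0.35 and -1.40 in ERBOE uterus. Eutopic Cmpk2 read -1.24, -0.35 and -0.24 in PRCre and -0.93, -0.49 and -1.41 in ERBOE hosts. Lesional Cmpk2 read -0.98, -0.56 and 0.32 in PRCre and -0.58, -0.52 and -1.42 in ERBOE lesions. Only ERBOE uterus replicate 3 lay within the PRCre uterine range. The Cmpk2 difference was 1.04 ± 0.48 in uterus, -0.33 ± 0.48 in eutopic tissue and -0.43 ± 0.48 in lesions, with a limma adjusted p of 0.50 in the uterus.

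Rsad2 encodes viperin, which makes a chain-ending nucleotide. In PRCre uterus Rsad2 read -0.37, -0.71 and -1.24, against 0.36, -0.48 and -1.60 in ERBOE uterus. Eutopic Rsad2 read -0.97, 0.70 and 0.05 in PRCre and -1.01, -0.40 and -2.05 in ERBOE hosts. Lesional Rsad2 read -0.33, -0.02 and 0.40 in PRCre and 0.25, -0.66 and -1.59 in ERBOE lesions. The lowest Rsad2 values in eutopic endometrium and in lesions were on ERBOE replicate 3 of each. Rsad2 differed by 0.20 ± 0.59 in uterus, -1.08 ± 0.59 in eutopic tissue and -0.69 ± 0.59 in lesions, and its uterine difference was -0.27 without ERBOE replicate 1 and -0.03 without PRCre replicate 3.

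Isg15, a ubiquitin-like modifier, ranged from 2.04 to 5.48 and differed by 0.74 ± 0.89 in uterus, -0.45 ± 0.89 in eutopic tissue and -0.10 ± 0.89 in lesions. Ifi44, an effector of less well known function, differed by 0.95 ± 0.81 in uterus, -0.88 ± 0.81 in eutopic tissue and -0.89 ± 0.81 in lesions. Rtp4 differed by 0.72 ± 0.77 in uterus, -0.37 ± 0.77 in eutopic tissue and -0.05 ± 0.77 in lesions, and Parp14, an ADP-ribosyl transferase, by 0.63 ± 0.48 in uterus, -0.40 ± 0.48 in eutopic tissue and -0.51 ± 0.48 in lesions. Trim30a, a member of the TRIM family, differed by 0.53 ± 0.66 in uterus, -0.56 ± 0.66 in eutopic tissue and -0.49 ± 0.66 in lesions. Xaf1, an antagonist of the apoptosis inhibitor XIAP, differed by 0.41 ± 0.58 in uterus, -0.29 ± 0.58 in eutopic tissue and -0.23 ± 0.58 in lesions, and its second probe, well above background on 14 arrays, by -0.15, -0.53 and -0.55. Bst2 (tetherin), which holds budding virus at the membrane, differed by 0.11 ± 0.41 in uterus, -0.25 ± 0.41 in eutopic tissue and -0.43 ± 0.41 in lesions, and Ifi35 by 0.38 ± 0.30 in uterus, -0.17 ± 0.30 in eutopic tissue and -0.23 ± 0.30 in lesions.

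Samhd1, which depletes nucleotides in myeloid and other cells, is shown by array because of its tissue pattern, chosen after its values were seen. Samhd1 read 2.27, 2.36 and 2.43 in PRCre uterus and 2.60, 2.15 and 1.72 in ERBOE uterus. Eutopic Samhd1 read 2.46, 2.98 and 2.70 in PRCre and 2.55, 2.45 and 2.06 in ERBOE hosts. In lesions Samhd1 read 2.96, 4.61 and 2.86 in PRCre and 3.06, 2.66 and 3.07 in ERBOE tissue. Samhd1 was thus higher on each lesion array than on each uterine array of either genotype, and its genotype difference was -0.19 ± 0.38 in uterus, -0.36 ± 0.38 in eutopic tissue and -0.54 ± 0.38 in lesions. As a group, 10 of 11 effectors were higher in ERBOE uterus, and 11 of 11 lower in each of the other tissues, with medians of 0.53, -0.37 and -0.43. With 1 array left out these ran from 0.23 (PRCre uterus replicate 2) to 0.96 (ERBOE uterus replicate 3), from -0.92 (PRCre eutopic replicate 1) to -0.02 (PRCre eutopic replicate 2) and from -0.80 (PRCre ectopic replicate 1) to -0.10 (PRCre ectopic replicate 3).

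The guanylate binding proteins and immunity-related GTPases attack membrane-bound microbes and answer strongly to interferon gamma. Their largest median difference was in lesions, where 1 PRCre array was far above all others. In PRCre uterus Gbp2 read 2.41, 1.41 and 1.46, against 2.37, 1.65 and 1.03 in ERBOE uterus. Eutopic Gbp2 read 1.31, 2.52 and 2.10 in PRCre and 1.71, 1.19 and 0.82 in ERBOE hosts. Lesional Gbp2 read 1.59, 4.59 and 2.31 in PRCre and 1.83, 1.18 and 1.99 in ERBOE lesions. For Gbp2 the next highest array after PRCre ectopic replicate 2 was PRCre eutopic replicate 2, at 2.52. The Gbp2 difference was -0.08 ± 0.62 in uterus, -0.73 ± 0.62 in eutopic tissue and -1.16 ± 0.62 in lesions, with a limma adjusted p of 0.99 in lesions. In PRCre uterus Gbp5 read -0.33, -1.13 and -0.69, against -0.54, -1.18 and -1.60 in ERBOE uterus. Eutopic Gbp5 read -0.77, -0.38 and -0.62 in PRCre and -1.05, -0.74 and -1.91 in ERBOE hosts. Lesional Gbp5 read -0.27, 2.27 and -0.40 in PRCre and -0.23, -1.02 and -0.14 in ERBOE lesions. The same array was the only one of 18 on which Gbp5 was above 0. Gbp5 differed by -0.39 ± 0.57 in uterus, -0.64 ± 0.57 in eutopic tissue and -0.998 ± 0.57 in lesions. In PRCre uterus Igtp read 2.27, 1.20 and 1.80, against 2.66, 2.23 and 1.73 in ERBOE uterus. Eutopic Igtp read 1.39, 2.57 and 2.67 in PRCre and 2.16, 2.31 and 1.30 in ERBOE hosts. Lesional Igtp read 1.59, 4.99 and 3.01 in PRCre and 2.31, 1.90 and 2.18 in ERBOE lesions. Igtp, whose promoter holds both elements, again peaked on that array and differed by 0.45 ± 0.64 in uterus, -0.29 ± 0.64 in eutopic tissue and -1.06 ± 0.64 in lesions.

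Iigp1 read 5.40 on PRCre ectopic replicate 2, with a difference of -0.32 ± 0.83 in uterus, -0.45 ± 0.83 in eutopic tissue and -1.30 ± 0.83 in lesions. Gbp3 differed by -0.02 ± 0.63 in uterus, -0.43 ± 0.63 in eutopic tissue and -0.86 ± 0.63 in lesions, and Irgm1, a regulator of the other immunity-related GTPases, by 0.72 ± 0.52 in uterus, -0.20 ± 0.52 in eutopic tissue and -0.67 ± 0.52 in lesions. Of these 6 genes, 2 were higher and 4 lower in ERBOE uterus, and 6 of 6 were lower in the other tissues. The group medians were -0.05, -0.44 and -1.03. Without PRCre ectopic replicate 2 the lesion median was -0.24, and without PRCre ectopic replicate 1 it was -1.59. The uterine median was -0.45 without ERBOE uterus replicate 1 and 0.41 without PRCre uterus replicate 1. The eutopic median was -0.81 without PRCre eutopic replicate 1 and -0.03 without ERBOE eutopic replicate 3.

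Psmb8 and Psmb9 encode subunits of the immunoproteasome, and Tap1 a subunit of the pump that carries peptides to MHC class I. In PRCre uterus Tap1 read 0.69, 0.56 and 0.48, against 1.19, 1.01 and 0.77 in ERBOE uterus. Eutopic Tap1 read 0.01, 1.43 and 1.37 in PRCre and 0.76, 0.69 and 0.18 in ERBOE hosts. Lesional Tap1 read 0.55, 3.16 and 1.58 in PRCre and 1.12, 0.66 and 0.94 in ERBOE lesions. Tap1 was the only one of the 38 genes whose uterine groups did not overlap, with each ERBOE array above each PRCre array (6.24% of all features did so in that direction). In lesions its PRCre arrays spanned 0.55 to 3.16 and enclosed all ERBOE arrays. The Tap1 difference was 0.42 ± 0.51 in uterus, -0.39 ± 0.51 in eutopic tissue and -0.86 ± 0.51 in lesions, with limma adjusted p of 0.82, 1.00 and 0.99. Psmb9 differed by 0.29 ± 0.50 in uterus, -0.21 ± 0.50 in eutopic tissue and -0.75 ± 0.50 in lesions. Psmb8 differed by 0.23 ± 0.49 in uterus, 0.04 ± 0.49 in eutopic tissue and -0.36 ± 0.49 in lesions, the one positive eutopic difference among the 38. The lesion median of the 3 genes was -0.75, and it was -0.10 without PRCre ectopic replicate 2 and -1.37 without PRCre ectopic replicate 1. Their uterine and eutopic medians were 0.29 and -0.21, the former 0.08 when PRCre uterus replicate 2 was left out and 0.57 when replicate 1 was, the latter -0.63 without PRCre eutopic replicate 1 and 0.01 without PRCre eutopic replicate 3.

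**Figure D4:**
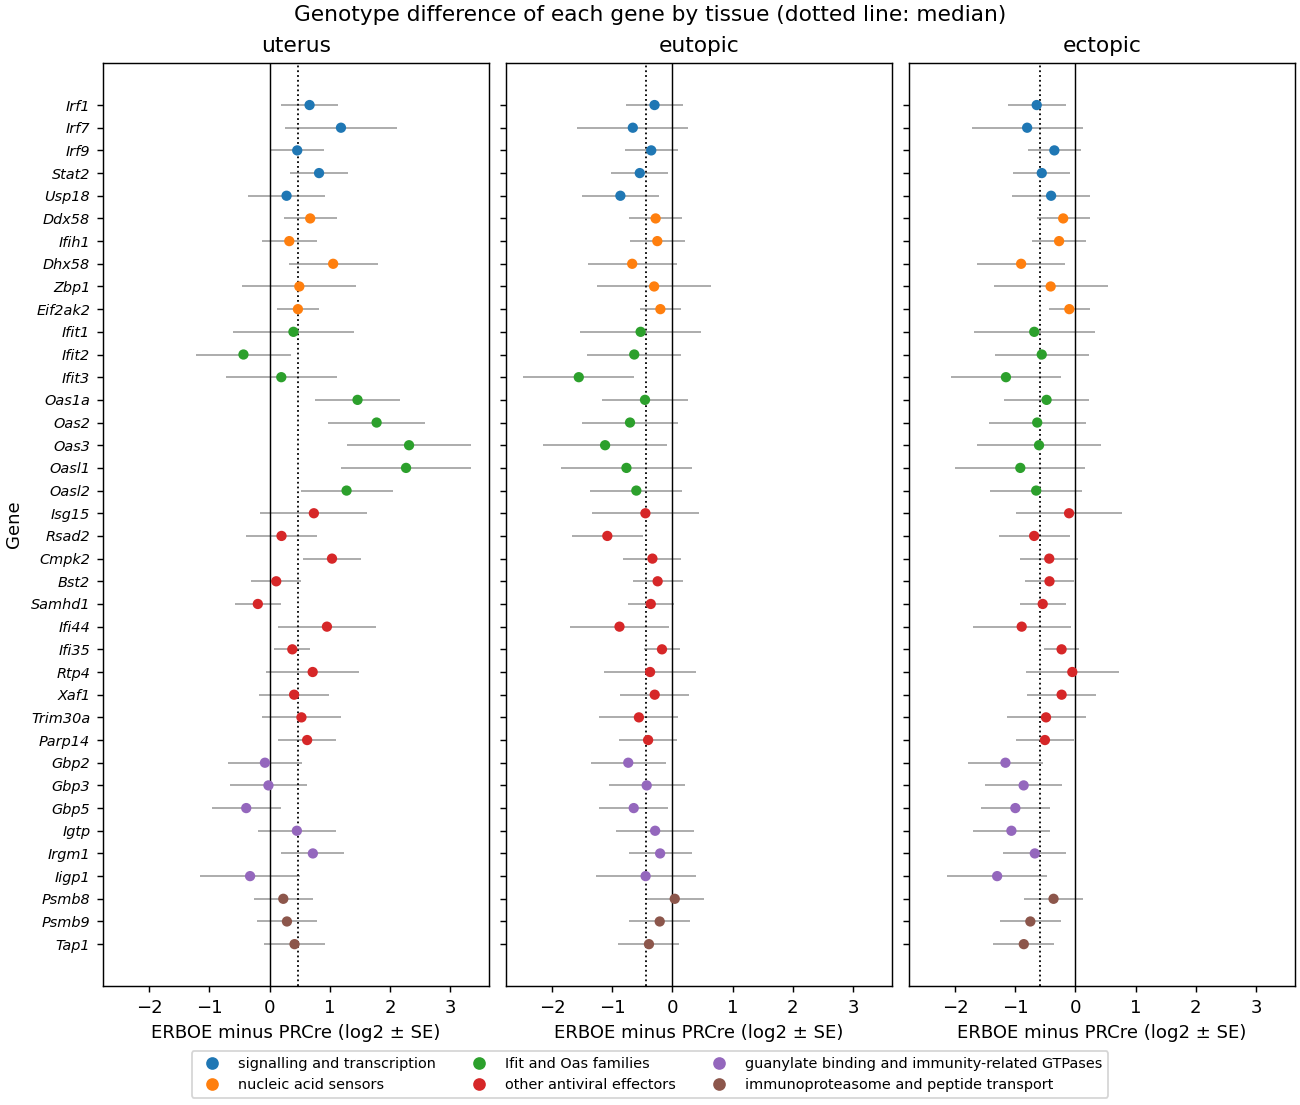
ERBOE minus PRCre difference of each of the 38 genes (x axis, log2 units, with SE from limma as bars, n = 3 arrays per group) in uterus, eutopic endometrium and lesions, coloured by role, with the median as a dotted line. Points lie mostly right of 0 in uterus (32 of 38) and left of 0 in eutopic endometrium (37 of 38) and lesions (38 of 38), while many bars cross 0.

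Across tissues, 31 of 38 genes were higher in ERBOE uterus and lower in both other ERBOE tissues, 6 were lower in all 3 and Psmb8 had a pattern of its own. The 6 were Ifit2, Samhd1, Gbp2, Gbp3, Gbp5 and Iigp1. Whether the genotype difference itself differed between tissues was tested as an interaction. The difference in eutopic endometrium minus that in uterus had a median of -0.94 (0.12 over all features) and was negative for 38 of 38 genes (40.8% of all features). The limma test called 0 of 38 genes and 0% of all features, and 2 of 38, Oas3 (-3.44 ± 1.45) and Oas2 (-2.48 ± 1.14), had an unadjusted p under 0.05 (2.26% of all features). Oas3 was well above background on 1 of 3 PRCre uterus and 2 of 3 PRCre eutopic arrays, so its value there rests in part on background. Lesions minus uterus gave a median of -1.03 (0.05 over all features), again negative for 38 of 38 genes (46.4% of all features). There limma called 0 of 38 genes and 0% of all features, and only Cmpk2 (-1.47 ± 0.68) was under an unadjusted p of 0.05 (3.07% of all features). Both interactions use the same uterine arrays. The eutopic median was -1.50 without PRCre eutopic replicate 1 and -0.58 without replicate 2, and the lesion median -1.56 without PRCre ectopic replicate 1 and -0.65 without ERBOE uterus replicate 1. Lesions minus eutopic endometrium gave a median of -0.08 (-0.06 over all features), with 13 genes positive and 25 negative (56.9% of all features). There 0 of 38 genes had an unadjusted p under 0.05 (1.63% of all features) and limma called 0% of all features, and the median changed sign with single arrays left out (-0.46 to 0.53).

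Between tissues of 1 genotype label, lesions differ from the others also in host, since they grew in wild-type mice, and uterus differs from the others also in surgery, so tissue cannot be told apart from these. PRCre lesions were higher than PRCre uterus for 38 of 38 genes (43.2% of all features), with a median of 0.90, against -0.08 over all features. Limma called 0 of 38 genes and 0.00904% of all features at an adjusted p under 0.05, and 8 of 38 were higher at an unadjusted p under 0.05 (4.42% of all features). These 8 were Samhd1 (1.12 ± 0.38), Oas3 (2.69 ± 1.02), Stat2 (1.19 ± 0.48), Cmpk2 (1.16 ± 0.48), Tap1 (1.19 ± 0.51), Oas2 (1.81 ± 0.80), Igtp (1.44 ± 0.64) and Gbp5 (1.25 ± 0.57). The Oas3 value is set against PRCre uterus, where 1 of 3 arrays was well above background, so it rests in part on background. Gbp5, Igtp and Tap1 overlapped between these groups, and their values rest largely on PRCre ectopic replicate 2 (2.27, 4.99 and 3.16 in turn). PRCre lesions and PRCre uterus did not overlap for Samhd1, Oas3, Stat2 and Rsad2 (4.97% of all features). The smallest limma adjusted p among the 38 was 0.27, for Samhd1. Samhd1 also peaked on PRCre ectopic replicate 2, at 4.61, against a lowest reading of 2.86 in that group. Its value thus rests in part on that array. The median was 0.57 without PRCre ectopic replicate 2, 1.39 without PRCre ectopic replicate 1 and 1.37 without PRCre uterus replicate 1.

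ERBOE lesions, in contrast to that comparison, read lower than ERBOE uterus for 32 of 38 genes (56.3% of all features), with a median of -0.17. Over all features that median was -0.07. Limma called 1.24% of all features there and 0 of 38 genes. At an unadjusted p under 0.05, 0 of 38 passed (11.9% of all features). Samhd1 again was higher in lesions, by 0.77 ± 0.38, without overlap (8.8% of all features), and Irgm1 was lower without overlap (11.3% of all features), by -0.62 ± 0.52. The median was 0.14 without ERBOE uterus replicate 1 and -0.61 without ERBOE uterus replicate 3.

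Eutopic endometrium read higher than uterus in PRCre animals for 34 of 38 genes (46.7% of all features), with a median of 0.47, and lower in ERBOE animals for 36 of 38 (42.4% of all features), with a median of -0.44. Over all features these medians were -0.03 and 0.06. Limma called 0 of 38 genes and 0% of all features in both, and 0 of 38 genes had an unadjusted p under 0.05 in either (6.68% of all features in PRCre and 3.29% in ERBOE animals). The PRCre median was 0.24 without PRCre eutopic replicate 2 and 1.11 without PRCre eutopic replicate 1, and the ERBOE median was -0.13 without ERBOE uterus replicate 1 and -0.86 without ERBOE uterus replicate 3. Samhd1 was higher without overlap in PRCre eutopic endometrium (3.6% of all features), and Psmb9 and Tap1 were lower without overlap in ERBOE eutopic endometrium (4.7% of all features).

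Lesions read higher than eutopic endometrium for 36 of 38 genes in PRCre (41.7% of all features, median 0.35) and 35 of 38 in ERBOE tissue (38.8% of all features, median 0.26). Over all features these medians were -0.06 and -0.12. Limma called 0.00301% and 0.618% of all features and 0 of 38 genes in both, and 0 of 38 had an unadjusted p under 0.05 (3.97% and 10.5% of all features). The PRCre median turned to -0.29 without PRCre eutopic replicate 1 and to -0.17 with array weights, and was 0.79 without PRCre ectopic replicate 1. The ERBOE median was 0.03 without ERBOE eutopic replicate 3 and 0.41 without ERBOE eutopic replicate 2. Zbp1 (0.90 ± 0.95) and Samhd1 (0.58 ± 0.38) were higher without overlap in ERBOE lesions (7.02% of all features). Comparisons that share a group share its arrays, so their values are not independent.

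The interferon genes themselves were read beside their targets. Of type I interferons, Ifnb1 was well above background on 1 of 18 arrays and Ifna4 on 0, so neither was tested. Ifne, the epithelial interferon of the reproductive tract, read 1.29, -3.72 and -4.58 in PRCre uterus and -0.42, -0.68 and -2.46 in ERBOE uterus. Eutopic Ifne read -1.87, 0.09 and -0.87 in PRCre and -2.96, -1.67 and -3.12 in ERBOE hosts. Lesional Ifne read -1.62, -2.53 and -1.27 in PRCre and -2.35, -0.93 and -2.88 in ERBOE lesions. In uterus Ifne was highest on PRCre replicate 1, where Ifit1, Ifit2 and Ifit3 were highest too, and lowest on PRCre replicates 2 and 3. Its difference was 1.15 ± 1.15 in uterus, -1.70 ± 1.15 in eutopic tissue and -0.25 ± 1.15 in lesions, and leaving out PRCre uterus replicate 3 gave a uterine value of 0.03, against 2.96 when replicate 1 was the one left out. In PRCre uterus 2 of 3 arrays were well above background for Ifne. Of the PRCre eutopic arrays only replicate 1, the low array for all 38 genes, lay within the ERBOE range of Ifne. Lesion arrays did not show the same order. Among PRCre lesions Ifne was lowest on replicate 2, where 0 of 38 genes were lowest and 17 were highest. Among ERBOE lesions it was highest on replicate 2, where 6 of 38 genes were highest, against 28 on replicate 1.

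Ifng, which encodes interferon gamma, was above 0 on 1 array, PRCre ectopic replicate 2, the array on which the GTPases peaked. Lesional Ifng read -4.15, 0.48 and -2.72 in PRCre and -5.54, -5.02 and -4.01 in ERBOE lesions, and it was well above background on 3 and 1 of those arrays. The readings on ERBOE ectopic replicates 1 and 2 lay below the lowest signal that was well above background there, so the lesion difference rests in part on background. On the other 17 arrays of the series it ran from -5.54 to -2.23. The Ifng difference was -1.37 ± 0.90 in uterus, -0.25 ± 0.90 in eutopic tissue and -2.73 ± 0.90 in lesions, with a limma adjusted p of 0.99 in lesions, and the lesion value was -1.43 without PRCre ectopic replicate 2 and -1.42 with normexp background correction.

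**Figure D5:**
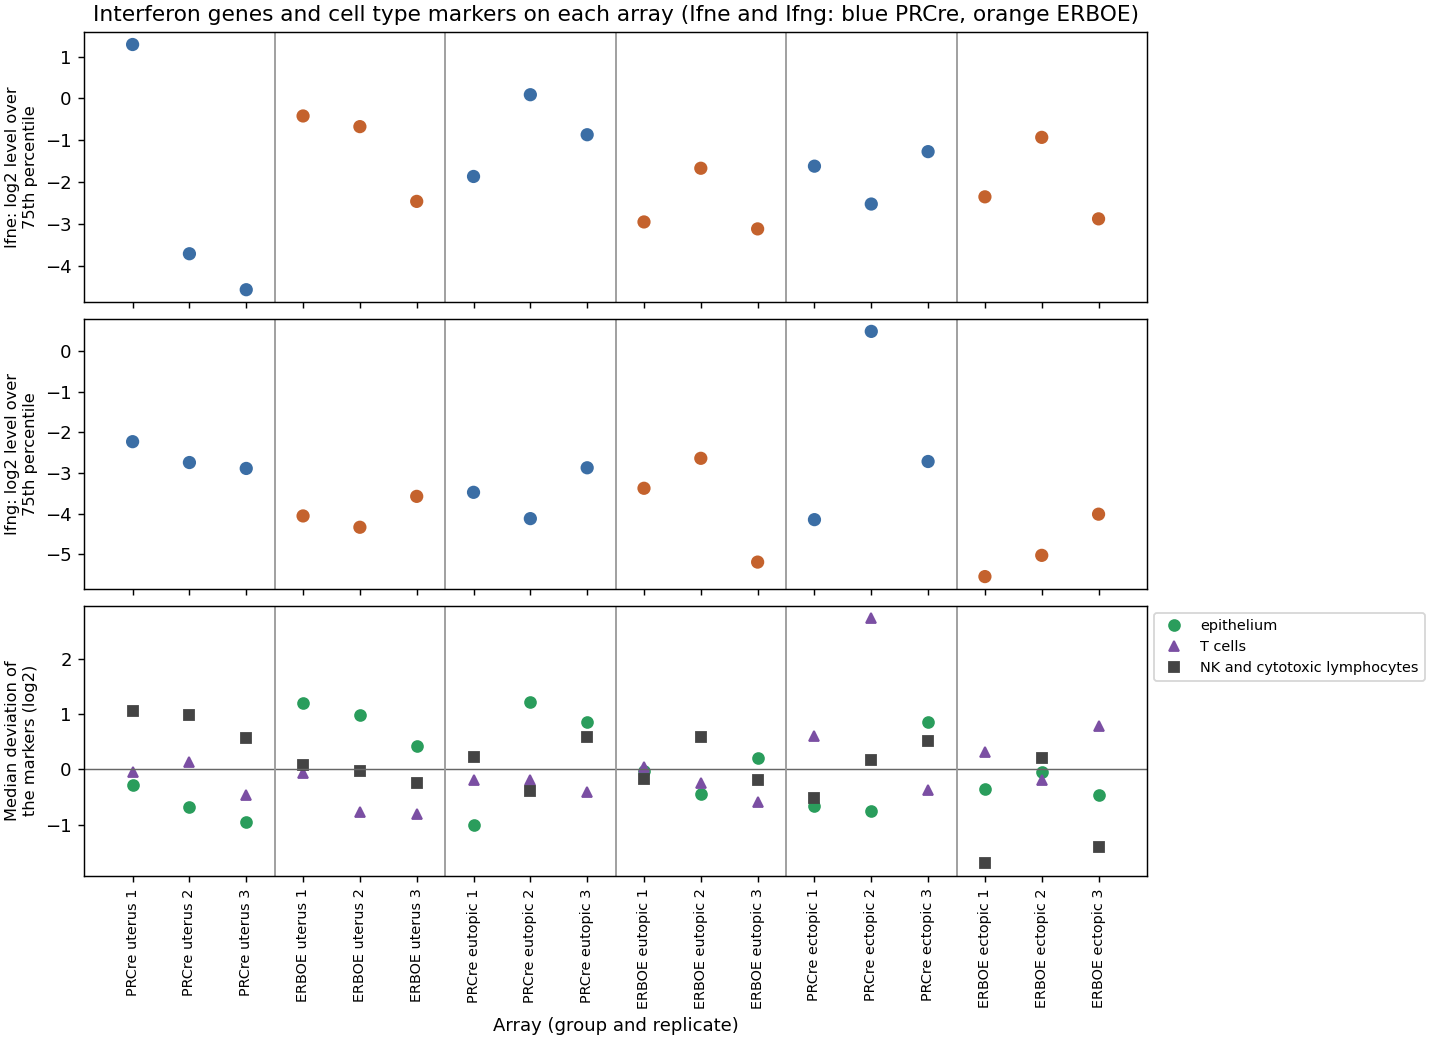
Top and middle panels give the log2 level of Ifne and Ifng over the 75th percentile on each of the 18 arrays (PRCre in blue, ERBOE in orange). The bottom panel gives the median deviation of epithelial, T cell and NK cell markers from each gene's mean (log2 units). Ifng (0.48) and the T cell markers (2.74) are highest on PRCre ectopic replicate 2, and Ifne is highest on PRCre uterus replicate 1 (1.29).

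The receptor genes were read as well. Ifnar1, a subunit of the type I receptor, ran from 2.12 to 2.70 on 17 arrays and read 3.81 on PRCre uterus replicate 1. It differed by -0.42 ± 0.29 in uterus, -0.17 ± 0.29 in eutopic tissue and 0.12 ± 0.29 in lesions. Ifnar2, its partner, differed by -0.45 ± 0.27 in uterus, -0.24 ± 0.27 in eutopic tissue and 0.04 ± 0.27 in lesions. For the interferon gamma receptor, Ifngr1 differed by 0.27 ± 0.28 in uterus, -0.04 ± 0.28 in eutopic tissue and -0.21 ± 0.28 in lesions and Ifngr2 by 0.44 ± 0.54 in uterus, -0.58 ± 0.54 in eutopic tissue and -0.04 ± 0.54 in lesions. Of 26 listed interferons, receptors and signalling genes, 23 were tested and 0 called in the genotype comparisons. In ERBOE 12 were higher and 11 lower in uterus (median 0.05), 9 higher and 14 lower in eutopic tissue (-0.08), and 9 higher and 14 lower in lesions (-0.10). Of all features, 40.3% were higher in uterus, 50.8% lower in eutopic tissue and 56.1% lower in lesions. Irf2, a repressor of interferon-responsive genes, had the smallest p of this list in uterus, at 0.68 ± 0.27, and Socs1, a feedback inhibitor, had it in eutopic endometrium, at 0.79 ± 0.50.

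Sensors and adaptors outside the 40 genes, 15 listed and 15 tested, had 0 calls and medians of 0.22, -0.14 and -0.11 in the 3 tissues. Mavs, the adaptor of RIG-I and MDA5, differed by 0.65 ± 0.23 in uterus. Cgas, the sensor of cytosolic DNA, differed by 0.81 ± 0.40 in eutopic endometrium, and Traf6, a ubiquitin ligase, by -0.34 ± 0.20. A further 45 tested of 49 listed interferon-induced genes had 0 calls. ERBOE uterus was higher for 36 of these 45 (40.3% of all features), with a median of 0.34. ERBOE eutopic endometrium was lower for 38 (50.8% of all features), with a median of -0.38. ERBOE lesions were lower for 40 (56.1% of all features), with a median of -0.48. The members with the smallest p were Adar (0.99 ± 0.34), an RNA-editing enzyme, Lgals3bp (1.14 ± 0.51) and Tapbp (0.71 ± 0.32) in uterus. In eutopic endometrium they were Ifit3b (-1.74 ± 0.87) and Trim25 (-0.62 ± 0.35). In lesions they were Gbp4 (-1.64 ± 0.64), Ifitm1 (0.97 ± 0.43) and Ifi27 (0.38 ± 0.21), with Ifitm1 and Ifi27 higher in ERBOE. The smallest limma adjusted p among these 8 genes was 0.40, for Adar. Ifit3 and Ifit3b are near-identical neighbours, so their probes may read both.

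Cell type markers moved with the interferon-induced genes on several arrays. The 10 epithelial markers had list medians of -0.29, -0.68 and -0.96 on the PRCre uterus arrays and 1.21, 0.99 and 0.42 on the ERBOE uterus arrays. In PRCre eutopic endometrium they were -1.01, 1.21 and 0.86, low on the array that was low for the 38 genes, and in ERBOE eutopic endometrium -0.03, -0.44 and 0.20. PRCre lesions read -0.67, -0.76 and 0.86, and ERBOE lesions -0.36, -0.05 and -0.47. All 10 epithelial markers were higher in ERBOE uterus (median difference 1.60) and all 10 lower in ERBOE eutopic endometrium (-0.41), with 0 called by limma and 7 of 10 higher at an unadjusted p under 0.05 in uterus (4.14% of all features). By sign alone, 40.3% of all features were higher in ERBOE uterus and 50.8% lower in ERBOE eutopic endometrium. The eutopic median was 0.10 without PRCre eutopic replicate 2 and -1.07 without PRCre eutopic replicate 1. The Ifit and Oas families, with list medians of 0.20, -1.68 and -1.45 in PRCre uterus and 1.42, 0.91 and -1.0 in ERBOE uterus, thus stood with the epithelial markers on some uterine arrays and apart on PRCre replicate 1 and ERBOE replicate 3. The part of epithelial content in these differences was not tested.

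T cell markers, 8 of 9 listed being tested and 6 of them well above background on all arrays, had list medians of 0.60, 2.74 and -0.37 in PRCre lesions and 0.31, -0.20 and 0.78 in ERBOE lesions. Elsewhere they ranged from -0.46 to 0.13 in PRCre uterus, -0.80 to -0.06 in ERBOE uterus, -0.41 to -0.19 in PRCre eutopic endometrium and -0.59 to 0.04 in ERBOE eutopic endometrium. PRCre ectopic replicate 2, the top array for T cell markers, Ifng and the GTPases, was also the top array for markers of B and plasma cells (2.81), macrophages and monocytes (1.89) and dendritic cells (1.80). NK and cytotoxic lymphocyte markers did not peak there (0.17), and 10 of 10 of them were lower in ERBOE uterus (median -0.96) and in ERBOE lesions (-1.26, and -0.71 with normexp background correction), with 0 called. All 8 T cell markers were lower in ERBOE uterus (-0.33, and -0.58 without ERBOE uterus replicate 3) and in ERBOE lesions (-0.64), and the lesion value was 0.34 without PRCre ectopic replicate 2. Of all features, 40.3% were higher in ERBOE uterus, where their median was -0.12, and 56.1% were lower in ERBOE lesions. Other marker lists read higher in ERBOE lesions. Adipocyte list medians were 4.60 to 5.05 in ERBOE and 2.17 to 4.24 in PRCre lesions, without overlap. Neutrophil list medians were 0.82 to 4.40 in ERBOE and -0.04 to 0.95 in PRCre lesions, with 2 of 7 listed markers well above background on all arrays. Marker lists thus differed between lesions of the 2 genotypes in both directions, but the T cell, NK cell and neutrophil lists overlapped there. Whether tissue make-up differed was not tested. The part of cell content in the lesion values of the GTPases and peptide genes was not tested.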

How the data were processed

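RNA of 18 pools of 3 mice was hybridised to Agilent 1-colour arrays, 3 per group, lying on 3 slides that match 3 scans. Per the file headers, the authors' scanner files were made with Agilent Feature Extraction 11.0.1.1 (grid build mm9) and hold a processed signal, a linear intensity after background subtraction, and flags for background, saturation and outliers. The median spot and background intensities deposited in the same files served for the normexp alternative, since a mean signal column was not used here. The deposited value table is on a log2 scale. Set against the scanner values centred per probe, each array had a correlation of 0.99999 to 1.0 and a slope of 1.0, so scale and direction were settled, while its exact centring is unknown. Its column medians ran from -0.15 to 0.36, the highest on PRCre uterus replicate 1.

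From the processed intensity, log2 values minus the array's 75th percentile were computed here, with control and outlier spots left out. Probes well above background on at least 3 arrays were kept (33178 features from 56605 probes), the brightest probe per symbol, and 32994 probes had a symbol through RefSeq accessions. A limma 3.58.1 model in R 4.3.3 fitted 6 group means to all 18 arrays (12 residual degrees of freedom, 2.49 prior), with 12 comparisons and Benjamini-Hochberg adjustment over all features. On simulated data of the uterine comparison, with 31556 genes and 200 shifted, 3.5% of shifts of 1 unit, 67.0% of 2 and 81.5% of 3 were called. Noise was drawn for each gene on its own, with its spread taken over all 6 groups. Arrays that move as a whole, and the spread of the uterine groups alone, were not simulated. The number of arrays limits the precision. Nothing says more of the pools than that their animals differed, so the p-values measure the spread between pools, taken over all 6 groups together. Alternatives were normexp with an offset of 50, quantile normalization, other probe filters and choices, the value table, slide and replicate blocks, array weights, another variance model and each array left out. Same-numbered arrays deviated together in all 3 pairs of the uterine comparison (correlations 0.31 to 0.45, the number coinciding with the slide) and of PRCre lesions and eutopic endometrium (0.14 to 0.35), and not in the other comparisons.

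The genes and lists were chosen with earlier results of these data known. Values on every array were given for the 5 regulators, the 4 genes with the smallest p in each genotype comparison and the 3 with the widest range of group means. Of the other lists, the interferons Ifne and Ifng and their receptors were named, with up to 5 genes per comparison by p. One gene of that rule is not reported here.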

Additional observations from a re-analysis of the deposited data

How the results depend on the processing

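No alternative called any of the 38 genes in any of the 12 comparisons, over 10 other settings and 18 fits that each left out 1 array. Every group holds 1 array of each replicate number, so a replicate block cannot move the medians. These were 0.47, -0.44 and -0.58 for ERBOE minus PRCre in uterus, eutopic endometrium and lesions. The block changed no call. Over the 10 settings, the replicate block among them, these medians were from 0.44 to 0.89, from -0.60 to -0.41 and from -0.66 to -0.29. Array weights moved the uterine median most, and turned PRCre lesions minus eutopic endometrium to -0.17. Signs turned for 8 of 54 values of single genes. In the uterus Gbp2 turned from -0.08 to 0.0036 with normexp background correction and to 0.22 with array weights, and ran from -0.42 to 0.25 with 1 array left out. Leaving out 1 array also gave uterine ranges of -0.077 to 0.74 for Usp18, -0.27 to 0.71 for Rsad2 and -0.56 to 1.40 for Ifit3. In eutopic endometrium the ranges were -2.29 to 0.17 for Oasl1, -0.70 to 0.024 for Igtp and -0.79 to 0.48 for Ifng, and in lesions -0.81 to 0.16 for Ifne. Of the gene group and marker medians, alternatives added after seeing the data, those printed that turned are given beside their values. The cause of these moves was not tested. With 3 arrays a group, permuting the arrays of 2 groups cannot give an exact two-sided p below 0.1. In the simulation, on genes drawn at random and with independent noise, most shifts of 1 unit, larger than most differences here, were not called.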
